A study of Mus musculus with 6 samples.

Results

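The genes described here are the relatives and the binding partners of the helix-loop-helix inhibitor Id2: the paralogs *Id1*, *Id3* and *Id4*, and the E protein genes *Tcf3* (E2A), *Tcf4* (E2-2) and *Tcf12* (HEB). They were taken by symbol, as every probe that the annotation of the array names with one of these 6 genes. Of 33012 probes on the array, 14411 carried exactly 1 gene symbol, for 13840 genes, and 5 of the 6 genes had a probe, with 1 probe each. *Id3* had no probe under its name and was not analysed here. Entrez identifiers were used to separate *Tcf3* and *Tcf4* from the HMG-box genes *Tcf7l1* and *Tcf7l2*, which were once known by the same symbols. *Id1*, *Tcf4* and *Tcf12* passed the detection criterion and were tested. *Id4* and *Tcf3* did not, and their levels are given without a test.

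The distal part of the midgut was dissected from *Id2*-/- embryos and from *Id2*+/+ embryos, described as littermates, at E13.5, an embryonic stage counted in days, when the tube holds endoderm, mesenchyme, vessels and enteric neural crest in 1 extract. The study kept its *Id2* mutant mice on an inbred or a mixed background, and neither another allele nor a treatment is stated for either genotype. Amplified total RNA of each sample was hybridised to 1 single-channel array, with 3 arrays per genotype numbered 1 to 3. The labels do not say whether a sample was 1 embryo or a pool, so each p-value measures the spread between these samples.

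Id proteins have a helix-loop-helix domain but lack the basic region that touches DNA. They bind E proteins, and so keep E proteins from pairing with each other or with tissue-restricted class II basic helix-loop-helix (bHLH) factors on E-box motifs. Id genes are classic targets of bone morphogenetic protein (BMP) signalling. The comparison asks whether loss of Id2 was met by a change in the transcripts of its relatives or partners.

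The E-box, CANNTG, is the element on which E proteins bind and from which Id proteins withhold them. Of the members whose signals were higher on both arrays numbered 1, *Id4*, *Tcf3* and *Tcf12* are shown with the RefSeq promoter window (build GRCm38.p6, 250 bases before to 50 bases after the start of transcription), read 5′ to 3′ on the strand of the gene, with each CANNTG in capitals. The *Id4* window lies at chr13:48260866-48261165 on the plus strand, the *Tcf3* window at chr10:80433586-80433885 on the minus strand, and the *Tcf12* window at chr9:72111770-72112069 on the minus strand.
Id4: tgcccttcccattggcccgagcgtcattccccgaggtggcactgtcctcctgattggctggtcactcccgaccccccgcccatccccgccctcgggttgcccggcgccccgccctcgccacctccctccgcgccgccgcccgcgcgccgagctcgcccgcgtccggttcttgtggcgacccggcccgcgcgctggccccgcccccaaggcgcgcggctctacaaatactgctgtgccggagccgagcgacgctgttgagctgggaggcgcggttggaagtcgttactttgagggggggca
Tcf3: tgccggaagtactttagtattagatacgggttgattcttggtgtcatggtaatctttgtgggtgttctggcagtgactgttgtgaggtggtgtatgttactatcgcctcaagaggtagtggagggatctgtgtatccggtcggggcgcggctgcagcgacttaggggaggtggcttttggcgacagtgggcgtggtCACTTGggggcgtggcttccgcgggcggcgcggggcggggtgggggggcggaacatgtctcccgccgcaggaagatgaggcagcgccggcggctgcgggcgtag
Tcf12: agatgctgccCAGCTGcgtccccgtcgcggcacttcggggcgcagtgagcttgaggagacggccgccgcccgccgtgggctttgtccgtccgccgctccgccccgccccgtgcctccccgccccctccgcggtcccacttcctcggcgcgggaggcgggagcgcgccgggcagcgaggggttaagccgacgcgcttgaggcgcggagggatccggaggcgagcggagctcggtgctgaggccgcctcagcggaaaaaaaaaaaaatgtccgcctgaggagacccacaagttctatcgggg
CANNTG reads the same on both strands, so a single search covers both. The *Id4* window held 0 matches, the *Tcf3* window held 1 (CACTTG at position -54 from the start) and the *Tcf12* window held 1 (CAGCTG at position -240). A further *Tcf12* start had 2 matches and another had 1, and the *Id3* window had 0. Of 32544 promoter windows of the same length, 72.3% held at least 1 CANNTG and 16.4% held CAGCTG. The windows printed here thus held no more matches than the median window, which had 1, and a match is a description of the letters only.

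The signals below are median-normalized intensities: the authors divided each spot by the median spot of its array, so 1 is the level of the median spot, and log2 of these values was used for differences and errors. A spot was called above background at a signal-to-noise of at least 3. Between 13890 and 16539 probes were above background on *Id2*-/- arrays, against 14497 to 15830 on *Id2*+/+ arrays, and 12741 probes entered the test because all 3 arrays of at least 1 genotype were above background and no array had a bad-spot flag. The arrays numbered 1 of both genotypes stood apart. Over the tested probes they correlated at 0.984 with each other and at 0.909 to 0.931 with the other 4, which correlated at 0.979 to 0.988. For the tested members, the differences are therefore also given by same-numbered pair and without the arrays numbered 1. No probe is named *Id2* in the annotation used, so the targeted transcript was not analysed here and the genotypes rest on the labels. At an adjusted p under 0.05 (Benjamini-Hochberg), limma called 0 of the 12741 tested probes, or 0%, and 234 probes had an unadjusted p under 0.05. When the array number entered the fit as a block, limma called 278 probes (135 higher and 143 lower in *Id2*-/-), or 2.18%, and quantile normalization before the blocked fit took this to 0 (0%). In the blocked fit without quantile normalization every probe had the same SE (0.27). Its p-values, here and below, thus do not measure the spread of the single gene.

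*Id1* was the member with the largest difference among the 3 tested. Its normalized signal was 74.0, 38.2 and 41.4 in *Id2*-/- midgut on arrays 1 to 3, against 53.0, 25.2 and 29.2 in *Id2*+/+ midgut. Each *Id2*-/- array lay above the *Id2*+/+ array of the same number, whereas over all 6 arrays the genotypes overlapped, because *Id2*+/+ array 1 was brighter than *Id2*-/- arrays 2 and 3. On arrays 2 and 3 alone, both *Id2*-/- values lay above both *Id2*+/+ values, as did 10.7% of tested probes.

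The excess of *Id1* in *Id2*-/- midgut was 1.40-fold in pair 1, 1.51-fold in pair 2 and 1.42-fold in pair 3. Its pair differences of 0.48, 0.60 and 0.51 on the log2 scale had an SD of 0.062, and 1.44% of tested probes had a smaller SD. A gene higher in *Id2*-/- in all 3 pairs was not rare, as 11.8% of tested probes were. The pairs also differed in their general level: the median over tested probes was 0.35, -0.04 and -0.19 in pairs 1 to 3. Relative to these medians, *Id1* was higher by 0.13, 0.64 and 0.70, and 29.4%, 4.78% and 6.94% of tested probes had a larger difference in pairs 1, 2 and 3.

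On the log2 scale, *Id1* averaged 5.61 ± 0.52 in *Id2*-/- midgut and 5.08 ± 0.57 in *Id2*+/+ midgut (SD, n = 3 each). The difference of 0.53 (SE 0.39, 95% interval -0.39 to 1.45, or 0.761- to 2.73-fold) did not pass the test (limma adjusted p = 1). An exact two-sided permutation test gave p = 0.3, where the smallest p that 3 against 3 arrays allow is 0.1. The blocked fit gave an interval of -0.01 to 1.07 (limma adjusted p = 0.757), and after quantile normalization the blocked difference was 0.48 (interval 0.05 to 0.90, limma adjusted p = 0.645). Without both arrays numbered 1 it was 0.55 (interval 0.17 to 0.94, limma adjusted p = 0.267). By unadjusted p, 7.83% of tested probes ranked before *Id1* in the test without the block and 5.40% without the arrays numbered 1. *Id1* was thus higher in *Id2*-/- in each pair by a similar ratio before the general level of the pair was taken off. Relative to the pair medians, it was higher by only 0.13 in pair 1, against 0.64 and 0.70 in pairs 2 and 3. *Id1* did not pass the threshold over all probes in any of these fits.

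**Figure D1:**
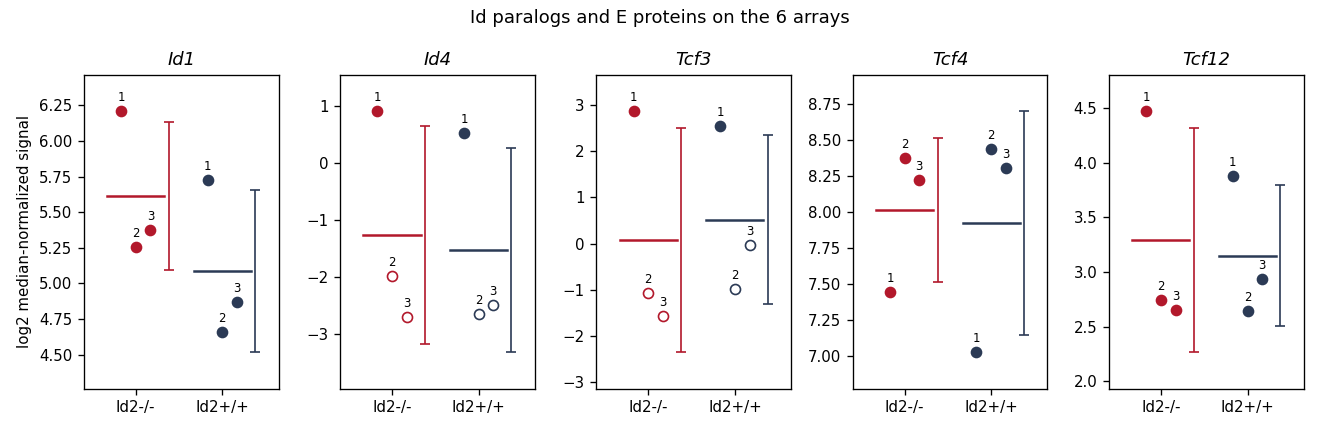
Log2 median-normalized signal (vertical axis) of the 5 genes with a probe in *Id2*-/- (red) and *Id2*+/+ (dark blue) midgut. Points are arrays, labelled by number, filled where above background and open where not, lines are means and bars SDs (n = 3 each). *Id1* is higher in *Id2*-/- at each array number, and *Id4* and *Tcf3* are above background on the arrays numbered 1 only.

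*Id4*, a paralog known best from neural and mammary progenitors, was near or under the detection limit. Its normalized signal was 1.88, 0.251 and 0.154 in *Id2*-/- midgut on arrays 1 to 3, against 1.44, 0.160 and 0.179 in *Id2*+/+ midgut. It was above background on array 1 of each genotype (signal-to-noise 14.9 in *Id2*-/- and 8.12 in *Id2*+/+) and not on the other 4 arrays. Pair 1, the pair in which both spots were above background, differed by 0.38, close to the median of 0.35 over all tested probes in that pair.

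*Tcf3*, whose E2A products are the E proteins of early lymphocytes and many other tissues, gave a similar pattern. Its normalized signal was 7.32, 0.472 and 0.339 in *Id2*-/- midgut, against 5.89, 0.507 and 0.981 in *Id2*+/+ midgut. Only array 1 of each genotype was above background, at a signal-to-noise of 25.5 in *Id2*-/- and 22.1 in *Id2*+/+. The difference was 0.31 in pair 1, again close to the median of that pair, and the differences of -0.10 and -1.53 in pairs 2 and 3 came from spots that were not above background. Hence, a change of *Id4* or *Tcf3* could not be assessed on arrays 2 and 3.

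*Tcf4* encodes E2-2, the E protein known for its role in plasmacytoid dendritic cells and neural development. Its normalized signal was 173.9, 332.9 and 299.4 in *Id2*-/- midgut, against 130.0, 346.6 and 316.5 in *Id2*+/+ midgut. The genotypes overlapped, and arrays 1 were the lowest of each genotype. The pair differences were 0.42, -0.06 and -0.08, which relative to the pair medians were 0.07, -0.02 and 0.11. *Tcf4* averaged 8.02 ± 0.50 in *Id2*-/- and 7.92 ± 0.78 in *Id2*+/+ (SD, n = 3 each), a difference of 0.09 that did not pass the test (SE 0.45, interval -0.97 to 1.15, limma adjusted p = 1). The interval narrowed to -0.44 to 0.63 with the block and to -0.18 to 0.34 with the block and quantile normalization, which bounds the change at 0.884- to 1.26-fold in that fit. Without both arrays numbered 1 the difference was -0.07 (interval -0.44 to 0.30).

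*Tcf12* encodes HEB, which pairs with E2A in thymocytes and with myogenic bHLH factors in muscle. Its normalized signal was 22.2, 6.72 and 6.28 in *Id2*-/- midgut, against 14.7, 6.23 and 7.66 in *Id2*+/+ midgut. Here, too, the genotypes overlapped, and the arrays numbered 1 were the highest. The pair differences were 0.60, 0.11 and -0.29, and the means were 3.29 ± 1.02 in *Id2*-/- and 3.15 ± 0.64 in *Id2*+/+ (SD, n = 3 each). The difference of 0.14 did not pass the test (SE 0.56, interval -1.18 to 1.46, limma adjusted p = 1). With the block the interval was -0.40 to 0.68, and without both arrays numbered 1 the difference was -0.09 (interval -0.51 to 0.33). No change of an E protein gene was therefore called, and without the block the intervals ran from 0.512- to 2.23-fold for *Tcf4* and from 0.442- to 2.75-fold for *Tcf12*.

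**Figure D2:**
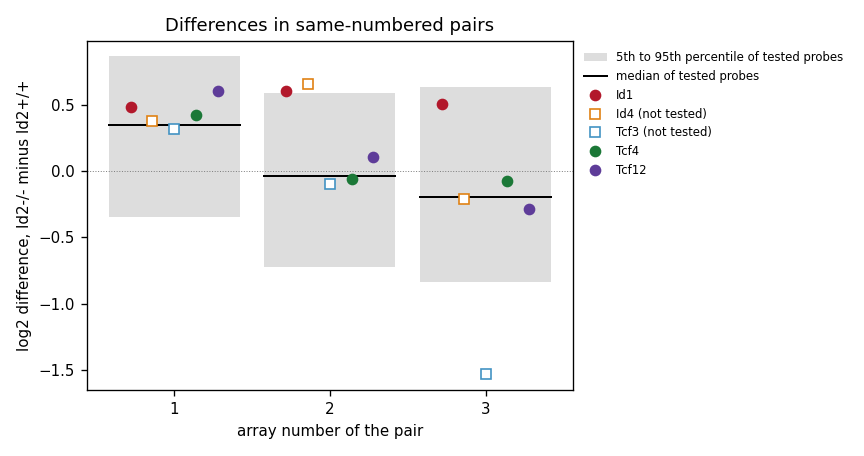
Log2 difference, *Id2*-/- minus *Id2*+/+ (vertical axis), in each same-numbered pair of arrays (horizontal axis) for the 5 genes with a probe. Grey bands span the 5th to 95th percentile and black lines the median (0.35, -0.04 and -0.19) of the 12741 tested probes. *Id1* lies between 0.48 and 0.60 in all 3 pairs, and *Tcf4* and *Tcf12* lie nearer to the median than *Id1* in pairs 2 and 3.

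Because Id proteins act by binding E proteins, the ratio of the signals within an array was also compared. The change of a ratio shows unequal change of its 2 genes and not which of them moved. *Id1* over *Tcf4* changed by 1.04-fold in pair 1, 1.58-fold in pair 2 and 1.5-fold in pair 3 (*Id2*-/- over *Id2*+/+). *Id1* over *Tcf12* changed by 0.922-, 1.40- and 1.73-fold in pairs 1, 2 and 3. In pairs 2 and 3 the signal of *Id1* thus moved up relative to both partners, whereas in pair 1 the ratios lay on either side of 1.

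For *Id1*, *Tcf4* and *Tcf12*, the arrays numbered 1 differed from the others by more than the genotypes differed. In *Id2*-/- midgut, array 1 exceeded the mean of arrays 2 and 3 by 1.77 for *Tcf12* and 0.90 for *Id1* on the log2 scale, and the shift of *Tcf4* was -0.86. In *Id2*+/+ midgut the shift was 1.08 for *Tcf12*, 0.97 for *Id1* and -1.35 for *Tcf4*. The median shift over all tested probes was 0.12 in *Id2*-/- and -0.28 in *Id2*+/+. The spots of *Tcf3* and *Id4* on arrays 2 and 3 were not above background. For their shifts, each such spot was set to the higher of its own value and the dimmest signal above background on its array. For *Tcf3* its own value was always the higher, so its shifts of 4.19 in *Id2*-/- and 3.06 in *Id2*+/+ are the measured ones. With the set levels, the shifts of *Id4* were 2.74 in *Id2*-/- and 2.29 in *Id2*+/+. *Tcf3* was still not above background at a log2 signal of -0.03 on *Id2*+/+ array 3. The detection limit of a single probe can thus lie above the set levels, and these shifts are not firm lower limits. In bulk tissue, fewer cells of a type and less RNA per cell cannot be told apart, and what set the arrays numbered 1 apart was not tested.

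By Pearson correlation of log2 signals over 6 arrays, the genes nearest to *Id1* among 7546 tested and named probes were *Ddx11* (0.992), *Gal* (0.991) and *Ramp3* (0.987). All 3 were higher in *Id2*-/- in every pair, by 0.30, 0.56 and 0.28 for *Ddx11*, the gene of a DNA helicase. Genes chosen for likeness to *Id1* on these same arrays tend to share its direction, and 11.8% of all tested probes were higher in every pair. A correlation over 0.9 with *Id1* was found for 5.41% of the probes, with *Tcf4* for 18.8% and with *Tcf12* for 23.3%. *Tcf4* was nearest to *Dnmt3b* (0.999), *Ubqln2* (0.999) and *Cwf19l2* (0.998), and *Tcf12* to *Hsp90b1* (0.999), *Lgals1* (0.999) and *Ssr2* (0.999). These points share 2 arrays that stood apart, and the correlations are a description.

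Markers of the cell types in the extract varied with the pairs. The intestinal marker *Cdx2* was above background on all 3 *Id2*-/- and all 3 *Id2*+/+ arrays, and *Cdx1* on 0 arrays. The median difference of 13 tested epithelial markers of 16 with a probe was 0.43, -0.52 and -0.85 in pairs 1 to 3, so that *Id1* and the epithelial markers lay on opposite sides of 0 in pairs 2 and 3. The summed signal of the epithelial markers was 801.9 to 884.4 in *Id2*-/- and 574.9 to 1539 in *Id2*+/+. Of the 13 tested, 1, *Foxa3*, was called lower with the block (limma adjusted p = 0.034, and 0.696 with the block and quantile normalization). The block called 2.18% of all tested probes. *Foxa3* differed by 0.22, -1.66 and -1.38 in pairs 1 to 3, and entered the test through its *Id2*+/+ arrays alone. Endothelium, in which Id1 is well known, gave median differences of 1.03, 0.25 and -0.12 over 9 tested markers of 11 with a probe, with a summed signal of 130.9 to 183.3 in *Id2*-/- and 90.4 to 145.5 in *Id2*+/+. Of these markers 2 were higher in all 3 pairs, and each of the 11 was above background on at least 1 array. Erythroid markers had median differences of 0.78, 0.53 and 0.57, with 3 of 5 tested higher in all 3 pairs and a summed signal of 1502 to 2340 in *Id2*-/- and 1242 to 1789 in *Id2*+/+. Those 3 were the embryonic globin genes *Hba-x*, *Hbb-bh1* and *Hbb-y*, the last higher by 1.07, 0.53 and 0.57. The other tested markers, *Hba-a1* (0.73, -0.22 and -0.46) and *Alas2* (0.78, -0.37 and -0.28), were lower in pairs 2 and 3. The erythroid regulator *Klf1* and the red-cell anion exchanger *Slc4a1* were not above background on any array. None of these 3 lists had a call in limma without the block, and their part in the values of *Id1* was not tested.

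The genes around the Id and E proteins were read from 8 lists holding 144 genes, of which 124 had a probe and 64 were tested. In limma 0 of the 64 were called, and 4 (6.25%) had an unadjusted p under 0.05, against 1.84% of all tested probes. In all 3 pairs, 16 of the 64 (25.0%) were higher in *Id2*-/- against a background of 11.8%, and 6 were lower, where the background is 5.64%. With the array number as a block, 4 (6.25%) were called, against 2.18% of all tested probes, with *Olig2* and *Bmp2* higher and *Fos* and *Egr1* lower, and 0 with the block and quantile normalization. *Olig2*, *Bmp2*, *Tal1*, *Cdkn2a* and *Tcf7l1* entered the test only through their *Id2*-/- arrays, and others such as *Fos* and *Nog* only through *Id2*+/+ arrays. Such a gene can differ through the filter itself, so these shares are not a result about the lists. The counts by list below describe these genes and are no test of the lists. Each count over all 3 pairs is to be read beside the 11.8% higher and 5.64% lower among all tested probes.

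Class II bHLH factors are the tissue-restricted proteins that need an E protein as partner. Of 42, 36 had a probe and 11 were tested, with a median difference of 0.18, against 0.04 over all tested probes, and 4 were higher and 0 lower in all 3 pairs. *Olig2*, which specifies oligodendrocytes and motor neurons, had log2 signals of 0.99, 0.39 and 1.32 in *Id2*-/-, against -0.48, 0.19 and -0.36 in *Id2*+/+. All *Id2*-/- values of *Olig2* lay above all *Id2*+/+ values, as they did for 2.73% of tested probes, and it rose by 1.12 in the fit with the block (limma adjusted p = 0.0042), where it was adjusted p = 1 without the block and 0.598 with the block and quantile normalization. Its signal was low, and only 2 of the *Id2*+/+ arrays were above background, so *Olig2* entered the test through its *Id2*-/- arrays alone. *Tal1*, the bHLH factor of blood and endothelium, differed by 0.44 (pairs 0.26, 0.19 and 0.88) and was not called. It too entered the test through its *Id2*-/- arrays alone.

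Hes and Hey proteins are bHLH repressors downstream of Notch, and Id proteins are known to bind Hes1. Of 10 with a probe 5 were tested, all with a positive difference (median 0.36). The median over all tested probes was 0.04, so most of those differences were positive too. In all 3 pairs 2 of the 5 were higher, as were 11.8% of all tested probes. *Hes5* had log2 signals of 2.51, 2.34 and 2.50 in *Id2*-/-, against 1.87, 1.86 and 1.81 in *Id2*+/+. All *Id2*-/- values lay above all *Id2*+/+ values (2.73% of tested probes did so), and the difference of 0.60 (SE 0.22) was not called (limma adjusted p = 1, and 0.509 with the block). *Hes1* differed by 0.36, and its pair differences were 0.83, -0.01 and 0.24. Cofactors of E and Id proteins had 11 tested of 18 with a probe, 3 higher and 1 lower in all 3 pairs. Among them were *Runx1t1*, an ETO corepressor that binds E proteins (0.45, pairs 0.27, 0.67 and 0.43), and *Elk3*, an ETS factor of the ternary complex type (0.46, pairs 0.79, -0.19 and 0.78), and neither was called.

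E proteins induce cyclin-dependent kinase inhibitors, and Id proteins oppose this in cultured cells. Of 6 inhibitor genes with a probe 4 were tested, with a median difference of 0.44, against 0.04 over all tested probes. In all 3 pairs 3 were higher, as were 11.8% of all tested probes. *Cdkn1a* (p21) had log2 signals of 3.45, 2.55 and 2.70 in *Id2*-/-, against 2.10, 1.81 and 2.43 in *Id2*+/+. These values did not overlap either (2.73% of tested probes), and the difference of 0.79 (SE 0.33) was not called (limma adjusted p = 1, and 0.133 with the block). *Cdkn2a*, which encodes p16 and p19Arf, had log2 signals of 0.73, 1.01 and 1.74 in *Id2*-/-, against -0.35, 0.69 and 0.53 in *Id2*+/+. Its difference of 0.87 was not called either (limma adjusted p = 1, and 0.0629 with the block). Only 2 of its *Id2*+/+ arrays were above background, so *Cdkn2a* entered the test through its *Id2*-/- arrays alone. The other tested inhibitors, *Cdkn1c* and *Cdkn2d*, differed by 0.08 and 0.09 and were added to the 2 with the smallest p after their values were seen. *Cdkn1c*, which is among the 3 counted as higher in all pairs, had pair differences of 0.12, 0.01 and 0.11.

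BMP ligands, receptors, antagonists and Smads act upstream of Id genes. Of 19 with a probe 11 were tested, with a median difference of 0.09, and 1 was higher and 0 lower in all 3 pairs. That gene by its measured values, the ligand *Bmp2*, had log2 signals of -0.34, -0.48 and -0.39 in *Id2*-/-, against -3.34, -1.16 and -0.58 in *Id2*+/+. All 3 *Id2*-/- spots and 0 *Id2*+/+ spots of *Bmp2* were above background, so its level in *Id2*+/+ is not known. With each *Id2*+/+ array set to the higher of its own value and its dimmest signal above background, *Bmp2* was 2.13-fold higher in *Id2*-/-. By pair, its log2 difference with these set levels was 2.41, 0.68 and 0.18, and in pairs 2 and 3 this is the measured difference. On *Id2*+/+ array 3 *Bmp2* was not above background at -0.58, near its *Id2*-/- signals. Its detection limit can thus lie above the set levels, and the 2.13-fold is not a firm lower limit. *Bmp2* entered the test through its *Id2*-/- arrays alone, and the fits used its measured *Id2*+/+ values and not the set levels (limma adjusted p = 1, 0.000346 with the block and 0.734 with the block and quantile normalization). The antagonist *Nog* differed by 0.42 (pairs 1.28, 0.19 and -0.22) and was not called.

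BMP target genes other than the Id genes had 4 tested of 13 with a probe, with a median difference of 0.10, and none was called or differed in 1 direction in all 3 pairs. The 2 with the smallest p were *Dlx5* (0.18, pairs 0.70, -0.11 and -0.06) and *Tbx3* (0.14, pairs 0.40, 0.17 and -0.14), both transcription factors of patterning. *Msx1*, a homeobox target of BMP signalling chosen for mention after its values were seen, was left untested, with 2 *Id2*-/- spots and 0 *Id2*+/+ spots above background. Its log2 signals were -1.90, -0.55 and 1.39 in *Id2*-/-, against -2.08, -1.38 and -1.09 in *Id2*+/+. The targets *Smad6* and *Bambi*, feedback inhibitors of BMP signalling also chosen after their values were seen, differed by 0.05 and 0.04. Of the HMG-box genes with look-alike names, *Tcf7l1* was tested, through its *Id2*-/- arrays alone, and differed by 0.37 (pairs 0.37, 0.13 and 0.61) without a call.

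**Figure D3:**
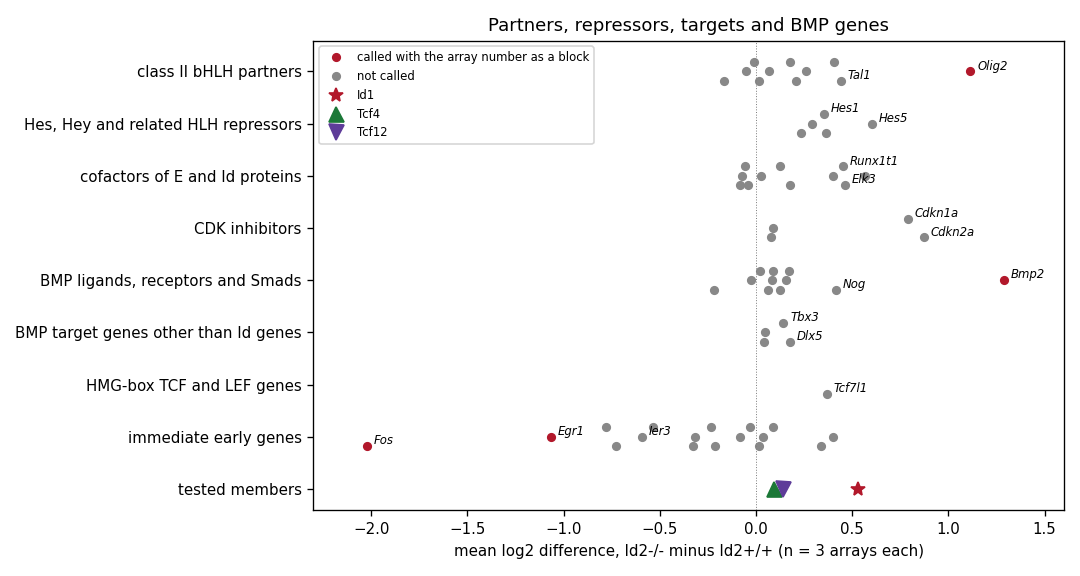
Mean log2 difference, *Id2*-/- minus *Id2*+/+ (horizontal axis, n = 3 arrays each), of the tested genes of 8 lists (1 per row, vertical offsets only separate points) and of the 3 tested members. Red points passed an adjusted p of 0.05 with the array number as a block, and 0 passed without it. *Olig2* and *Bmp2* lie at the right and *Fos* and *Egr1* at the left. The 5 tested Hes and Hey genes are all above 0, where the median of all tested probes is 0.04.

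Immediate early genes were read because Egr1 is known to induce *Id1*. Of 21 with a probe 17 were tested, with a median difference of -0.23, and 2 were higher and 5 lower in all 3 pairs. *Fos* had log2 signals of 0.59, 1.45 and 1.76 in *Id2*-/-, against 1.05, 3.83 and 4.98 in *Id2*+/+. In the fit with the block it fell by 2.02 (limma adjusted p = 1.35e-10), while the adjusted p was 1 without the block and 0.574 with the block and quantile normalization. The small p rests on an SE shared by all probes and does not measure the spread of *Fos*, whose pair differences were -0.5, -2.4 and -3.2. *Fos* entered the test through its *Id2*+/+ arrays alone. *Egr1*, chosen for mention after its values were seen, had log2 signals of 1.68, 2.25 and 2.03 in *Id2*-/-, against 0.93, 3.41 and 4.81 in *Id2*+/+, and was called lower with the block alone (-1.07, limma adjusted p = 0.00772). For *Fos* and *Egr1* alike, *Id2*+/+ arrays 2 and 3 were high and *Id2*+/+ array 1 was low. The pair differences of *Egr1* of 0.75, -1.16 and -2.78 ran in the direction opposite to *Id1* in pairs 2 and 3. *Ier3* differed by -0.59 (pairs -0.52, -0.51 and -0.74, limma adjusted p = 1).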

How the data were processed

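RNA of the distal midgut of 3 *Id2*-/- and 3 *Id2*+/+ embryo samples was measured on 6 single-channel Applied Biosystems arrays. The deposited intensity values are raw signals that the authors divided by the median of each array, so 1 is the median spot, and the deposited signal-to-noise and flag values are scores of the array software. Per the methods of the study, spots with a flag under 5000, called false, and signal-to-noise values under 3 were excluded. Here the flag was read in the opposite direction to the printed one, and spots with a flag of at least 5000 were left out, because 78 to 229 spots an array carry such a flag. The series table held the same values (largest difference 0). The number of arrays limits the precision.

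Log2 values were compared with limma 3.58.1 (R 4.3.3), without a block, over 12741 probes that were not flagged on any of the 6 arrays and had a signal-to-noise of at least 3 on all 3 arrays of a genotype. P-values were two-sided and adjusted (Benjamini-Hochberg) over these probes, with a threshold of 0.05. The steps were tested on simulated data. Probes were named from the platform annotation (14411 with 1 symbol, 247 with several, which were not named), updated through the RefSeq table of GRCm38.p6. Each gene with a probe among the members had 1. The same-numbered arrays of the genotypes deviated together from their group means (correlations 0.838, 0.644 and 0.579 over tested probes), and differences are therefore also given with the arrays paired by number. The main fit and the permutation test did not use this pairing. This pairing comes from the sample titles and the data, and the titles do not say what a number marks. A fit with the array number as a block is given beside results it changes. E-boxes were counted in RefSeq promoter windows.

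The genes named were all members, the 2 genes of each list with the smallest unadjusted p, and for each tested member the 3 genes most correlated with it. Other genes were chosen after their values were seen. Marker genes of mesenchyme, smooth muscle, neural cells and macrophages were also read, and had median differences of 0.04, 0.16, 0.07 and -0.11 with 0 calls. The members and lists were chosen with earlier results of these data known. Alternatives were quantile normalization, centring on the tested probes, other filters, an offset, a trended robust prior, the methods' t-test, the block, and leaving out arrays.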

Additional observations from a re-analysis of the deposited data

How the results depend on the processing

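*Id1* was higher in *Id2*-/- under all 19 alternatives (0.48 to 0.55 on the log2 scale, and 0.23 to 0.85 when 1 array was left out), and its smallest limma adjusted p was 0.267. The series table, the filters, the block, the prior and the t-test cannot change this difference (0.53 in each). Their agreement was thus fixed in advance and is no support. *Tcf4* ranged from -0.36 to 0.38 when 1 array was left out and was -0.069 without both arrays numbered 1. *Tcf12* ranged from -0.45 to 0.50 when 1 array was left out and was -0.089 without both arrays numbered 1. *Id4* and *Tcf3*, not tested, ranged from -0.81 to 1.30 and from -1.84 to 0.58 when 1 array was left out. With the replicate block, 135 probes were called higher and 143 lower in *Id2*-/-, against 0 in each direction without it and under the other 18 alternatives, which include the block with quantile normalization, with median centring or without the filter. The replicate block changed no call of a member, and in it every probe had the same SE (0.27). Leaving out both arrays numbered 1, and the block with centring or without the filter, were chosen after seeing the data. Slide and scan were not used as blocks, since neither is given in the sources used here, and each member had 1 probe, so no second probe could be compared. Signals under background limit what can be said of *Id4* and *Tcf3*, and 3 arrays per genotype limit the rest. The causes of these changes were not tested.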
